A study of Mus musculus with 22 samples.

Results

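The 10 genes described here mark luminal epithelial cells of the mammary gland: Cdh1, Epcam, Krt8, Krt18, Krt19, Cldn3, Cldn4, Cldn7, Esrp1 and Grhl2. They were chosen by name, with earlier results of these data known. A CpG position (1 cytosine on 1 strand) belonged to a gene when it was covered by at least 10 reads in all 22 samples and lay in the gene body or within 2 kb of one of its RefSeq transcription start sites (TSS) in mm10. This gave 613 of the 1140639 positions covered in all samples, from 16 positions in Krt19 to 120 in Grhl2. DNA methylation had been profiled by enhanced reduced representation bisulfite sequencing (ERRBS) in bulk, snap-frozen mammary tissue of female mice. The PyMT mice were F1 females heterozygous for the MMTV-PyMT transgene, from a PyMT male and a homozygous FVB female, with hyperplasia at week 6 (n = 2), adenoma/MIN at week 8 (n = 3), early carcinoma at week 10 (n = 3) and late carcinoma at week 12 (n = 2). Age-matched homozygous FVB females without the transgene gave 3 normal glands at each of these weeks (n = 12). The MMTV promoter drives the oncogene mainly in mammary epithelium, and all PyMT mice carry the same transgene insertion.

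Luminal cells line the mammary ducts and are joined by adherens and tight junctions. Cdh1 encodes E-cadherin, the adhesion protein of adherens junctions, and Epcam a surface adhesion molecule of epithelial cells. Krt8, Krt18 and Krt19 encode keratin filaments of simple epithelia, and Cldn3, Cldn4 and Cldn7 encode claudins, the sealing proteins of tight junctions. Grhl2 is a transcription factor of epithelial junction genes, and Esrp1 is an RNA-binding protein that sets epithelial splicing. CpG-rich promoters are usually unmethylated whether or not the gene is on, while CpG-poor sequence inside genes is usually methylated unless it serves as a regulatory element.

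All 10 promoters (positions within 2 kb of a TSS) were less methylated in PyMT than in FVB. However, 8 of them were already under 10% in FVB, and these lost 0.476 to 2.79 percentage points. The large losses lay in short stretches inside 6 of the genes. Epcam, Cdh1, Krt18, Esrp1, Grhl2 and Cldn4 each held at least 1 stretch that fell by 25 points or more, from 35.2 to 86.4% in FVB to 7.53 to 26.9% in PyMT. The losses were present in hyperplasia. Since the tissue is bulk, a larger share of epithelial cells and a lower methylation per cell cannot be told apart.

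The stretches on which these results turn are printed 5′ to 3′ on the strand of the gene, in mm10, in lower case with the CpGs measured in all samples in capitals. The first 5 are the stretch with the largest difference in each of 5 genes. The Cldn4 coding stretch and the CpG-dense Cldn7 stretch, which held little methylation in either group, were added as contrast after their values were seen.
Epcam, coding exon 4 and intron 4, chr17:87640469-87640607, plus strand: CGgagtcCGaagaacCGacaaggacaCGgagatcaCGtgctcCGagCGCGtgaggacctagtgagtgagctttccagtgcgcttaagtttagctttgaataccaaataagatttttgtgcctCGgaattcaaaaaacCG
Cdh1, intron 2, chr8:106611692-106611779, plus strand: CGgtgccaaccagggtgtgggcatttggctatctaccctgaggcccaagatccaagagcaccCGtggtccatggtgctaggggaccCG
Krt18, intron 1, coding exon 2 and intron 2, chr15:102029425-102029557, plus strand: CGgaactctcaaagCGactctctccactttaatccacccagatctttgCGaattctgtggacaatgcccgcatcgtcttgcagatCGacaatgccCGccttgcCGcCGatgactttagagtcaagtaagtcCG
Esrp1, intron 3, chr4:11384007-11384068, minus strand: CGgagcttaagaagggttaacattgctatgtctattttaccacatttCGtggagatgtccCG
Grhl2, intron 8, chr15:37323261-37323367, plus strand: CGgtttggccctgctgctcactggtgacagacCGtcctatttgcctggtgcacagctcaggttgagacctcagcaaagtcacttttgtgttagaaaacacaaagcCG
Cldn4, coding exon 1, chr5:134946232-134946383, minus strand: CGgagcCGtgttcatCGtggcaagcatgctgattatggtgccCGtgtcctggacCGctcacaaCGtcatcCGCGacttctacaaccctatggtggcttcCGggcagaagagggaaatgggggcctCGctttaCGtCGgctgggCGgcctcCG
Cldn7, coding exon 2 and intron 2, chr11:69966103-69966199, plus strand: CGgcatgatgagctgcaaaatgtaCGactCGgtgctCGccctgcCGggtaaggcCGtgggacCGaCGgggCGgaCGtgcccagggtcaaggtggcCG

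The stretches differ in CpG content. Those of Cdh1, Esrp1 and Grhl2 hold 3 CpGs each, in 88, 62 and 107 bp, while Epcam holds 11 in 139 bp, Krt18 10 in 133 bp, Cldn4 14 in 152 bp and Cldn7 11 in 97 bp. The median number of CpGs within 100 bp of a measured position was 3 in Cdh1, Esrp1 and Grhl2, 10 in Krt18, 15.5 in Epcam, 15 in Cldn4 and 17 in Cldn7, so the lost stretches were not all CpG-poor. The 3 CpGs of the Cdh1 stretch went from 51.7 to 11.3%, from 56.2 to 18.4% and from 71.5 to 24.4% (means of the FVB and of the PyMT samples). The 10 positions of the Epcam stretch lay between 78.1 and 91.3% in FVB and between 18.5 and 41.5% in PyMT. The 3 positions of the Grhl2 stretch lay between 72.4 and 83.1% in FVB and between 17.5 and 20.6% in PyMT. In the Cldn7 stretch, 20 positions on both strands lay between 1.14 and 16.7% in FVB and between 0 and 4.96% in PyMT. Methylation was thus lost along the whole of each of the first 5 stretches and not at single CpGs.

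A sample held 1314077 to 1435757 positions, at a mean coverage of 60.2 to 79.2 reads, and the mean coverage of the 10 genes ran from 38.1 (Krt19) to 82.0 reads (Cldn4). Mean methylation of a sample was 26.0 to 28.6% in PyMT and 27.2 to 29.2% in FVB. Mitochondrial CpGs, a reading that includes unconverted bases, were 0.179 to 0.276% methylated in PyMT and 0.172 to 0.242% in FVB. FVB week 8 replicate 2 lay farthest from its group (5.95 points, lowest sample 3.60), and no call of a named cluster, promoter or gene body was lost when any 1 sample was left out. Positions of Cldn3, Cldn7 and Grhl2 that overlap Wbscr25, Elp5 and Gm16136 belong to both genes. Each file is 1 mouse, and differences are PyMT minus FVB in percentage points.

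To ask at which stage single cytosines differed, the reads of the PyMT samples were compared with those of the age-matched FVB samples at each position. A position was called a differentially methylated cytosine (DMC) at q under 0.01 when the groups also lay at least 10 points apart. Of the 613 positions, 91 were hypomethylated in hyperplasia, 94 in adenoma/MIN, 105 in early carcinoma and 94 in late carcinoma. These are 14.8, 15.3, 17.1 and 15.3%, against 6.01, 7.10, 8.42 and 8.53% of all positions tested. Hypermethylation was found at 10, 9, 8 and 10 positions, 1.31 to 1.63%, against 2.62, 3.20, 4.39 and 4.44% of all positions. These counts rest on few samples: without PyMT week 6 replicate 1 there were 5 at week 6, without FVB week 10 replicate 2 there were 4 at week 10, and without PyMT week 12 replicate 3 there were 6 at week 12. At all 4 stages 69 positions were hypomethylated (11.3%, against 3.27% of all positions) and 1 was hypermethylated (0.163%, against 1.05%). Neighbouring positions share reads, and the test takes reads as its units. With a minimum of 25 points 62, 62, 68 and 63 positions were hypomethylated, against 2.81, 3.12, 4.05 and 4.57% of all positions. With samples as units (limma on positions) 24, 40, 56 and 45 of the 613 positions were called lower, against 0.468, 1.17, 2.24 and 1.96% of all positions.

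The 69 persistent hypo-DMCs were unevenly spread over the genes. Cldn4 held 22 of them among its 29 positions, Epcam 13 of 71, Cdh1 12 of 116, Krt18 9 of 33, Grhl2 7 of 120 and Esrp1 4 of 116. Krt19 and Cldn7 held 1 each, and Krt8 and Cldn3 held none. The persistent hyper-DMC lay in intron 3 of Krt18 (chr15:102030028), at 74.4% in FVB and 87.6% in PyMT.

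The share of hypo-DMCs differed by the level of the normal gland and by the distance from the TSS. A position under 10% in the FVB samples of a week cannot lose the 10 points that a call needs. The low shares in the lowest class and near a TSS are thus in part set by the threshold, and level and distance were not separated. Of the 613 positions 407 were under 20% in FVB, 112 lay between 20 and 80% and 94 were over 80%. In the lowest class 2.70, 2.21, 3.69 and 3.19% of the positions were hypo-DMCs at weeks 6, 8, 10 and 12, against 0.441, 0.415, 0.585 and 0.405% of all positions of that class. In the intermediate class 55.4, 62.5, 67.0 and 60.7% were hypo-DMCs, against 26.0, 28.9, 33.7 and 31.6%. In the class over 80% the shares were 19.1, 16, 16 and 13.8%, against 9.97, 13.5, 16.2 and 19.0%. Within 500 bp of a TSS, 180 of 186 positions were under 20% in FVB and 2 were hypo-DMCs at all stages. These 2 lay 346 bp upstream of Cldn4 (54.3% in FVB, 14.9% in PyMT) and in the 5′ UTR of Cldn7 (16.5 and 2.22%). Persistent hypo-DMCs numbered 31 of 263 positions between 500 bp and 2 kb of a TSS, and 36 of 164 in the rest of the gene bodies. They had a median of 5 CpGs within 100 bp, against 15 for positions of these genes called at no stage. Over all positions the same medians were 5 and 19.0.

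**Figure D1:**
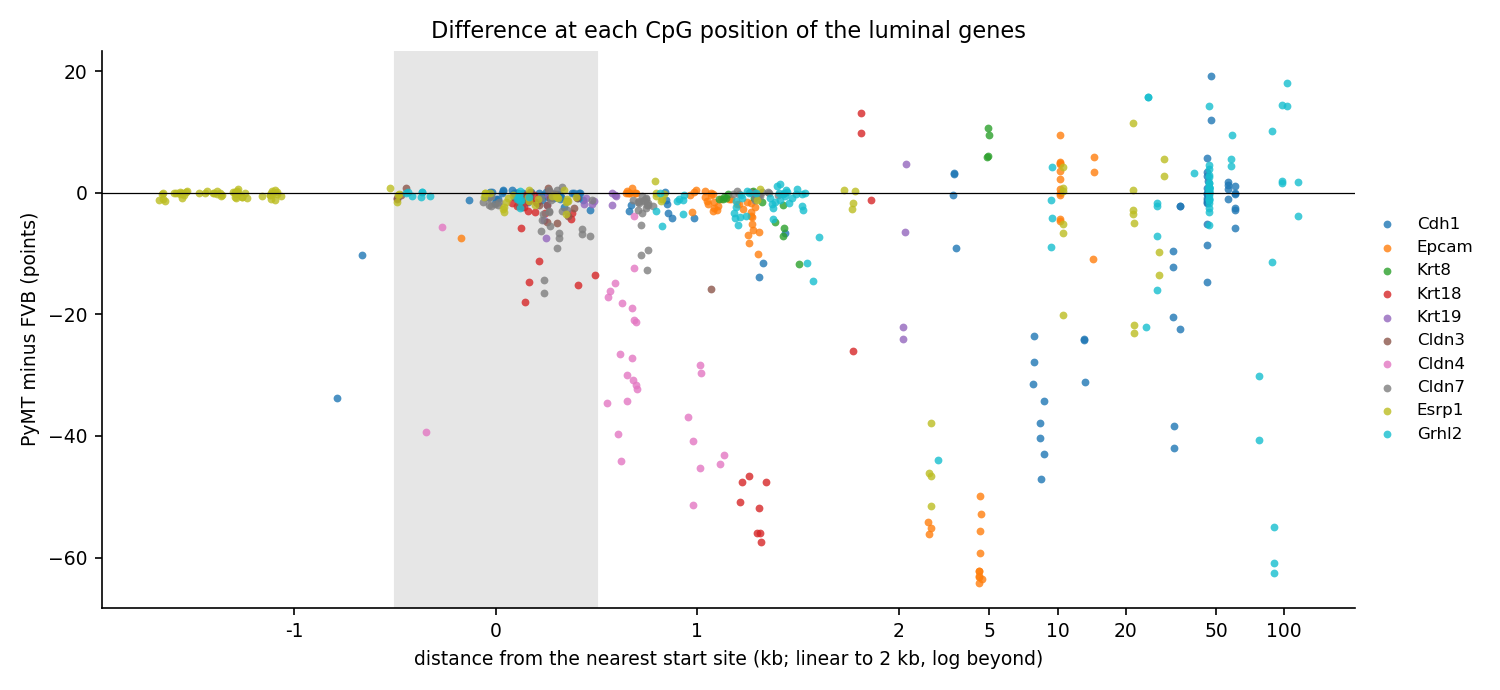
Difference in mean methylation (PyMT minus FVB, points) at each of the 613 CpG positions against the distance from the nearest start site (kb, linear to 2 kb and log beyond), colored by gene, with the 500 bp on each side of the start site in grey. Most positions near a start site sit close to 0, and the deepest losses form short columns of points inside Epcam, Krt18, Esrp1, Cdh1 and Grhl2.

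Promoter methylation, the mean over all positions within 2 kb of a TSS, was compared with samples as units (limma with week as a factor, adjusted over 16407 promoters). All 10 promoters were lower with an adjusted p under 0.05, where 17.1% of all promoters were lower and 16.9% higher. Of the promoters under 10% in FVB, 11.6% were lower and 16.8% higher, against 8 lower and 0 higher of the 8 such promoters here. With a minimum of 5 points 2 of the 10 were called lower, against 6.58% of all promoters, and 0 higher, against 3.97%. In 6 of the 10 all PyMT samples lay under all FVB samples, against 5.35% of all promoters. For these 6, Cdh1, Epcam, Krt18, Cldn4, Cldn7 and Grhl2, labels were permuted within week. The exact two-sided permutation p was 2.50e-05, the smallest that its 40000 arrangements can give. These 6 were picked for their lack of overlap, which leaves no arrangement with a larger loss, so this p adds no support.

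Among the adhesion genes, the Epcam promoter lay between 2.61 and 4.44% in FVB (median 3.11%) and between 0.668 and 2.38% in PyMT (median 0.849%). Its means were 3.22 ± 0.524% (SD, n = 12) and 1.09 ± 0.552% (SD, n = 10), a difference of -2.17 points (SE 0.221, limma adjusted p = 1.39e-07). The Cdh1 promoter went from 4.18 ± 0.285% (SD, n = 12) to 2.34 ± 0.303% (SD, n = 10), a difference of -1.84 points. Its core, a CpG island over the TSS (chr8:106603216-106603819, 54 positions), was at 0.769 and 0.250%. Most of the methylation of this promoter window came from outside the island, such as the position 787 bp upstream of the TSS (75.6% in FVB, 41.9% in PyMT), which was named after its value was seen.

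Among the keratins, the Krt18 promoter lay between 27.6 and 34.2% in FVB (median 32.1%) and between 14 and 17.1% in PyMT (median 15.6%). No PyMT sample came near the lowest FVB sample. The difference was -15.9 points (SE 0.686, limma adjusted p = 1.74e-12), and within 500 bp of the TSS the means were 8.89 and 3.71%. All 33 measured positions of Krt18 lie in the promoter window, 8 of them in the exon 2 stretch printed above. The loss of this promoter and that of the stretch are thus not separate results. The Krt8 promoter went from 3.68 ± 0.998% (SD, n = 12) to 1.20 ± 0.658% (SD, n = 10). The Krt19 promoter, with 12 positions, went from 3.12 ± 1.52% to 1.21 ± 0.760% (limma adjusted p = 0.00793). The groups overlapped in both, and FVB week 8 replicate 2 was at 0 for Krt19. The Krt19 adjusted p became 0.0653 on the log2 ratio of reads.

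Among the claudins, the Cldn4 promoter lay between 34.9 and 48.3% in FVB (median 40.8%) and between 8.77 and 19.6% in PyMT (median 12.3%), a difference of -28.9 points (SE 1.51, limma adjusted p = 2.11e-11). This window covers the whole of the short, single-exon gene. The Cldn7 promoter went from 4.04 ± 0.788% (SD, n = 12) to 1.27 ± 0.449% (SD, n = 10), without overlap. The Cldn3 promoter went from 3.15 ± 0.762% to 1.27 ± 0.618%, with overlap. PyMT week 8 replicate 2 was the highest PyMT sample for Epcam, Krt8, Cldn3 and Cldn7, at 2.26 to 2.53%.

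Of the regulators, Grhl2 went from 2.83 ± 0.332% (SD, n = 12) to 1.17 ± 0.430% (SD, n = 10), without overlap. Within 500 bp of its TSS the difference was -0.637 points and not significant (limma adjusted p = 0.122). Esrp1 went from 0.957 ± 0.187% to 0.480 ± 0.211%, with overlap, and had the lowest mean of the 10 promoters in both groups. In FVB the means of Grhl2, Krt19, Cldn3, Epcam, Krt8, Cldn7 and Cdh1 followed each other from 2.83 to 4.18%, and neighbours in this order overlapped. Krt18 and Cldn4 lay above all of them in every FVB sample. In PyMT the 8 low promoters held 31.4 to 56.0% of their FVB mean, and Krt18 and Cldn4 held 49.4 and 30.6%.

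**Figure D2:**
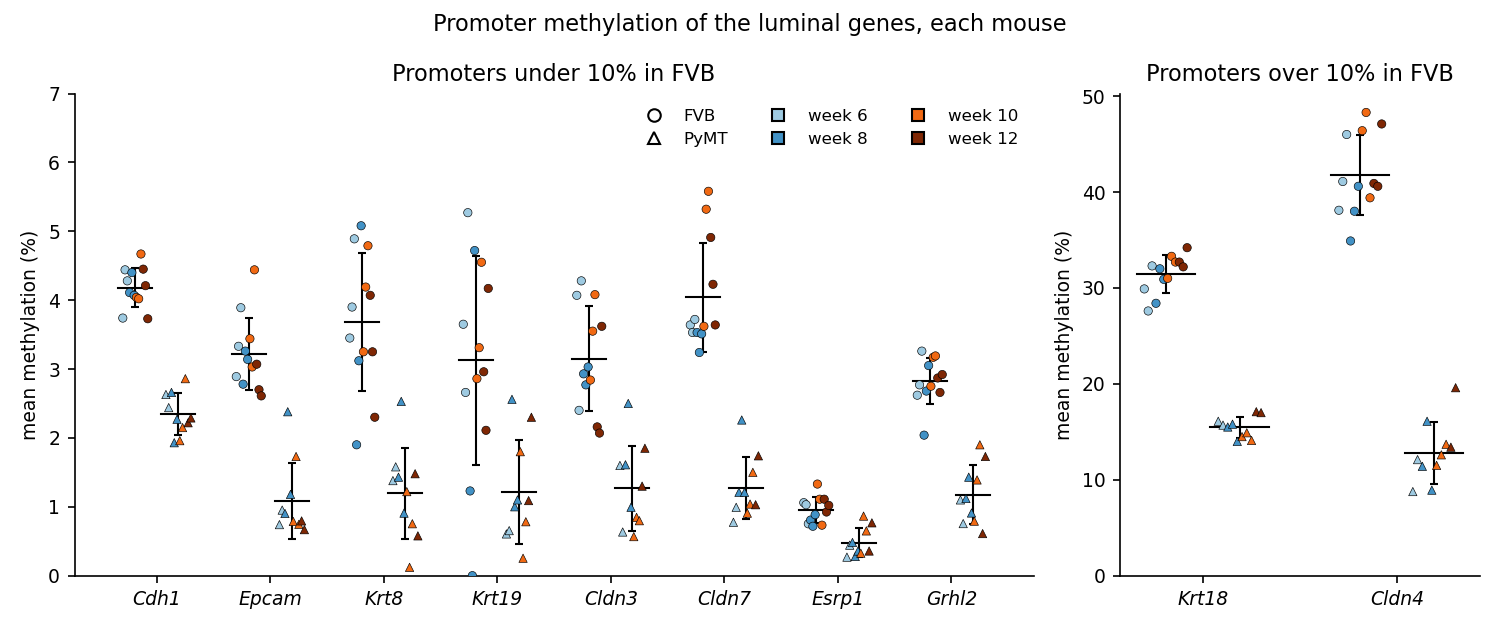
Mean methylation (%) within 2 kb of the start site of each gene in each mouse, circles for FVB (n = 12) and triangles for PyMT (n = 10), colored by week, with the mean (bar) and SD. The 8 promoters under 10% in FVB are on the left and Krt18 and Cldn4 on the right, on separate axes from 0, and the PyMT mean is the lower one for each gene.

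RefSeq promoter windows (250 bases before to 50 after a TSS, GRCm38.p6) were used for Epcam, Krt8, Krt18, Cldn3, Cldn4 and Cldn7, 7 windows in all. Promoter windows of Cdh1, Krt19, Esrp1 and Grhl2 were not used here. The E-box CACCTG, searched on both strands, was in 6 of the 7 windows and in 20.2% of the 32851 windows searched. Epcam, Cldn4 and 1 of the Cldn7 windows held 2 matches each. The grainyhead motif AACNGGTT was in 0 of the 7 windows and in 2.09% of the windows searched.

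To find where inside the genes methylation differed, positions were joined into CpG clusters, runs of at least 3 positions with gaps of at most 100 bp, without use of the groups. The genes held 51 of 84563 clusters. Over the 4 weeks 14 were called lower (limma adjusted p under 0.05 and at least 5 points) and 3 higher, or 27.5 and 5.88%, against 25.6 and 10.5% of all clusters. The share of lower clusters was therefore near the background. With a minimum of 25 points, chosen after the values were seen, 8 clusters (15.7%) were lower, against 4.54% of all clusters. With a minimum of 10 points 11 of the 51 were lower, against 16.1% of all clusters. In 15 clusters (29.4%) all PyMT samples lay under all FVB samples, against 9.25%, and the reverse was found in 0, against 3.49%. Without a minimum 31 clusters (60.8%) were lower, against 31.7%, and 3 higher, against 16.6%. Of the 16 clusters between 20 and 80% in FVB, 10 were lower and 3 higher, where 41.8% of such clusters were lower and 24.3% higher. Of the 24 clusters under 10% in FVB none passed 5 points, and 17 were lower with an adjusted p under 0.05, against 6.93% of such clusters.

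Epcam carried the deepest loss of the adhesion genes. The stretch of exon 4 and intron 4, 4.5 kb from the TSS, lay between 78.5 and 96.7% in FVB (median 87.5%) and between 14.3 and 41.3% in PyMT (median 25.1%). The difference was -59.3 points (SE 3.21, limma adjusted p = 3.18e-11), and the groups were far apart. A second stretch in intron 2 (chr17:87638652-87638755), described after its value was seen, as are the other clusters below that are not printed above, went from 73.8 to 18.7%. The island of intron 2 (chr17:87636941-87637283, 35 positions) went from 3.58 to 1.09%, without overlap. Exon 8 (chr17:87646191-87646281) stayed methylated, at 83.4% in FVB and 85.3% in PyMT (limma adjusted p = 0.311). Over the gene body outside the promoter Epcam went from 83.3 ± 2.45% (SD, n = 12) to 55.8 ± 4.38% (SD, n = 10).

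In Cdh1 the losses lay in intron 2. The printed stretch, 8.4 kb from the TSS, lay between 45.6 and 72.0% in FVB (median 58.2%) and between 12.3 and 22.9% in PyMT (median 19.3%), a difference of -42.0 points (SE 3.00, limma adjusted p = 9.62e-10). A neighbour (chr8:106611160-106611261) went from 35.2 to 7.53%, and another cluster (chr8:106635766-106635888) from 74.0 to 49.5%, both without overlap. The cluster 34.5 kb from the TSS (chr8:106637860-106637960) fell from 88.8 to 79.9%, with overlap (limma adjusted p = 2.04e-04). The cluster 3.5 kb from the TSS was at 14.8 and 14.1%, exon 3 at 85.1 and 83.7% and intron 12 at 94.7 and 93.0%, and none of these 3 was called. The gene body went from 70.1 to 59.6%.

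The 3 keratins differed from each other. The Krt18 stretch around exon 2 lay between 58.4 and 77.3% in FVB (median 68.1%) and between 11.4 and 25.1% in PyMT (median 16.3%), a difference of -51.3 points (SE 2.06, limma adjusted p = 2.07e-12). A neighbour at the end of exon 1 (chr15:102028591-102028709) went from 13.7 to 4.61%. The mean of the next cluster downstream (chr15:102029986-102030075, intron 3) was 75.2 and 74.1% (limma adjusted p = 0.567). This cluster holds the persistent hyper-DMC of Krt18 named above, so its similar mean does not show that its positions were unchanged.

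Krt8 was more methylated in PyMT at the cluster of exon 4 and intron 4 (chr15:101999344-101999448). It lay between 71.7 and 85.3% in FVB (median 76.2%) and between 80.6 and 92.5% in PyMT (median 83.9%), with overlap, a difference of 8.17 points (SE 1.81, limma adjusted p = 7.89e-04). These 4 positions are all that the Krt8 body holds outside the promoter window, and with promoters cut to 500 bp the body, then 19 positions, differed by -0.242 points (limma adjusted p = 0.697). In its intron 1 (chr15:102002837-102003071) Krt8 went from 5.13 to 1.78%. Krt19 was lower at exon 4 (chr11:100141554-100141622), between 40.2 and 77.9% in FVB (median 67.7%) and between 37.2 and 63.3% in PyMT (median 53.4%). Its groups overlapped widely, and the difference was -12.2 points (SE 3.96, limma adjusted p = 0.0145).

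Of the claudins Cldn4 had the large losses. Its 3′ UTR (chr5:134945801-134945979) lay between 48.5 and 70.5% in FVB (median 57.9%) and between 8.43 and 27.5% in PyMT (median 17.2%), a difference of -39.9 points (SE 2.64, limma adjusted p = 3.61e-10). The printed coding stretch went from 35.9 ± 4.61% (SD, n = 12) to 10.9 ± 2.82% (SD, n = 10), and neither cluster had overlap between the groups. Cldn7 and Cldn3 had little methylation to lose. The 5′ UTR cluster of Cldn7 (chr11:69965645-69965896) went from 6.46 to 1.97% without overlap, a difference of -4.58 points (limma adjusted p = 4.86e-07), and Cldn3 (chr5:134986328-134986619) went from 2.58 to 1.09% with overlap (limma adjusted p = 0.00162). Both missed the minimum of 5 points over the 4 weeks. By week, the Cldn7 cluster was called lower at weeks 10 and 12 (-6.13 and -5.55 points, limma adjusted p = 6.14e-05 and 4.19e-04).

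The Esrp1 stretch in intron 3, 2.8 kb from the TSS, lay between 47.8 and 78.4% in FVB (median 62.0%) and between 11.6 and 27.0% in PyMT (median 17.7%), a difference of -45.7 points (SE 3.24, limma adjusted p = 8.79e-10). It lies beside a CpG-rich promoter that was almost free of methylation in both groups. Deeper in the gene, intron 4 was at 80.8 and 76.3% and not called over the 4 weeks (limma adjusted p = 0.123), but was called lower at week 10 (-13.3 points, limma adjusted p = 0.0177). Exon 8 was at 82.5 and 82.6%. The Grhl2 stretch in intron 8, 90.3 kb from the TSS, lay between 62.6 and 90.7% in FVB (median 78.8%) and between 12.6 and 26.4% in PyMT (median 18.2%). Its difference of -59.7 points (SE 2.83, limma adjusted p = 7.31e-12) was the largest of the 51 clusters.

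Elsewhere in Grhl2 the differences were small and of either sign. The cluster in intron 1 (chr15:37260540-37260610) fell from 92.7 to 86.0%. The cluster in intron 6 (chr15:37291504-37291539) rose from 77.5 to 84.0% and that in intron 9 (chr15:37330746-37330848) from 65.2 to 71.2%, with overlap in each of these. By week, intron 6 was called at weeks 6 and 8 only (12.9 and 8.76 points) and was at -1.58 points at week 12. Its FVB mean was 72.0% at week 6 and 83.1% at week 12. Intron 9 was called at week 12 only (15.6 points), and its difference at week 6 was 0.390 points. The cluster of exon 4, with 29 positions, was at 93.2 and 94.0% and not called. The Grhl2 gene body as a whole, with 59 positions, went from 81.8 to 77.9% and missed the minimum of 5 points, so the mean over the body did not show the stretch. Of the 6 gene bodies measured, Cdh1, Epcam, Krt19 and Esrp1 were called lower and Krt8 higher, where 32.8% of all gene bodies were lower and 10.6% higher.

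**Figure D3:**
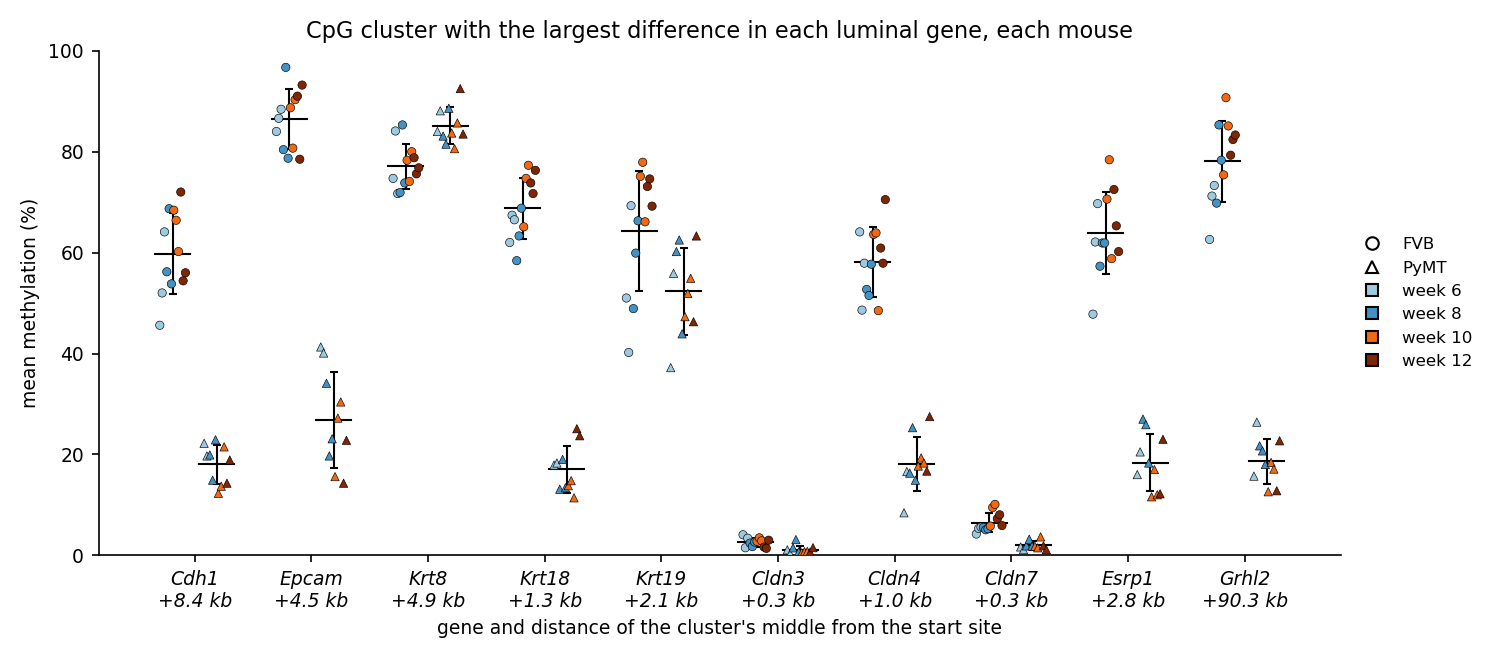
Mean methylation (%) of the CpG cluster with the largest difference in each gene (distance of its middle from the start site below the name) in each mouse, circles for FVB (n = 12) and triangles for PyMT (n = 10), colored by week, with the mean (bar) and SD. In Cdh1, Epcam, Krt18, Cldn4, Esrp1 and Grhl2 the PyMT samples lie between 8.43 and 41.3% and all FVB samples at 45.6% or above, while the groups overlap in Krt8, Krt19 and Cldn3.

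By week, 10, 13, 14 and 13 of the 51 clusters were called lower and 1, 1, 0 and 2 higher from week 6 to week 12, and leaving out single samples took each of the higher counts at weeks 6, 8 and 12 to 0. The background was 10.3, 15.9, 19.5 and 20.7% lower and 3.27, 5.71, 7.80 and 7.83% higher. At each of the 4 weeks 10 clusters (19.6%) were lower, against 7.73% of all clusters, and these included all 6 deep stretches named above. In hyperplasia Epcam exon 4 was at 41.3 and 40.1% in the 2 PyMT samples, and the means of the later weeks were 25.6, 24.4 and 18.5%. The corresponding Grhl2 means were 21.0, 20.2, 16 and 17.8%, and those of Krt18 were 18.1, 15.2, 13.3 and 24.4%.

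Whether the difference grew was tested as the difference at weeks 10 and 12 minus that at weeks 6 and 8. None of the 51 clusters was called (limma, lowest adjusted p = 0.217), and 0.266 and 0.305% of all clusters were called lower and higher. An unadjusted p under 0.05 was found in 7 of the 51 clusters and in 10408 of the 84563 clusters, a similar share. Without PyMT week 8 replicate 3, 1 of the 51 was called lower. For Epcam exon 4 the change was -13.0 points (limma adjusted p = 0.366). In FVB alone, weeks 10 and 12 against 6 and 8, no cluster of the genome was called (limma). An unadjusted p under 0.05 was found in 12 of the 51 clusters and in 5582 of all 84563 clusters, a smaller share. Of these 12, Grhl2 intron 9 (-6.73 points) and Epcam exon 8 (-5.64 points) were lower at the later weeks. The others were higher, Krt19 exon 4 the most (16.7 points). The Krt19 cluster was called at week 10 only, and Krt8 at week 12 only. From week 6 to week 12 the Krt19 means were 53.5, 58.4, 73.0 and 72.3% in FVB. In PyMT they were 46.5, 55.5, 51.4 and 54.8%, so the wider gap at the later weeks came with a higher FVB level.

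**Figure D4:**
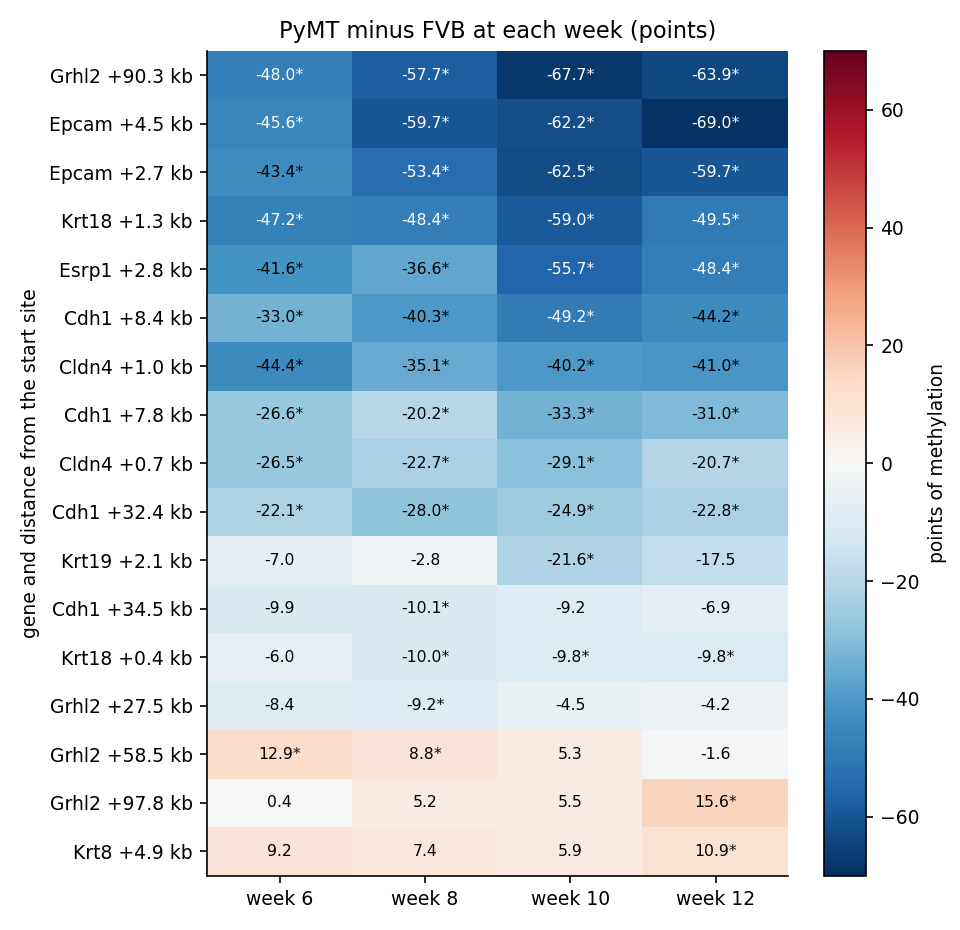
PyMT minus FVB (points) at each week for the 17 clusters called over the 4 weeks, ordered by difference, blue for lower and red for higher, with an asterisk where the week itself was called. The 10 clusters at the top are lower at every week, and the 3 at the bottom are those called higher, in Grhl2 and Krt8.

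The same measures were taken over lists of other genes, since the mix of cells differs between a normal gland and a tumor. In a wider list of 34 epithelial genes (junction, keratin and transcription factor genes), 31 promoters were measured. Of these 7 were called lower and 0 higher, against 6.58 and 3.97% of all promoters. Without a minimum 24 were lower and 1 higher, against 17.1 and 16.9% of all promoters. Its median difference was -0.917 points, against -2.02 for the 10 luminal genes and -0.00618 for all promoters. The mean of its promoters lay between 8.22 and 11.4% in FVB and between 3.92 and 5.69% in PyMT, and that of the 10 luminal genes between 8.26 and 10.9% and between 3.18 and 4.85%.

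The lists of other cell types held promoters that were higher as well as lower, except that no fibroblast promoter was lower. Of 7 fibroblast promoters 0 were lower and 4 higher without a minimum, and their mean was 11.5 to 15% in FVB and 15.1 to 18.0% in PyMT. Of 6 endothelial promoters 2 were lower and 3 higher (20.1 to 24.3% and 27.0 to 30.1%), and of 5 leukocyte promoters 1 was lower and 2 higher (36.8 to 41.6% and 34.4 to 44.7%). Of 8 adipocyte promoters 3 were lower and 1 higher (36.9 to 40.2% and 31.0 to 35.6%), and of 5 basal and myoepithelial promoters 3 were lower and 1 higher (20.3 to 26.6% and 23.0 to 28.7%). The median differences of these promoter lists were 1.47 points for fibroblast, 1.21 for endothelial, 2.67 for leukocyte, 0.151 for adipocyte and -2.65 for basal and myoepithelial genes, so the basal median lay below the luminal one while its mean level did not fall. Among promoters under 10% in FVB, 18 of 24 of the wider epithelial list were lower and 1 higher. Of all such promoters 11.6% were lower and 16.8% higher. The other lists held few of them. Lower and higher were 0 and 3 of 5 fibroblast, 1 and 1 of 3 endothelial and 0 and 1 of 2 leukocyte promoters. They were 0 and 1 of 3 adipocyte and 1 and 0 of 1 basal and myoepithelial promoters.

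In gene bodies the median of each list was below 0. The 6 luminal bodies had a median difference of -11.4 points, the wider epithelial list -2.40, the basal and myoepithelial list -7.67, the leukocyte list -6.79, the adipocyte list -3.86, the endothelial list -2.32 and the fibroblast list -2.23, against -1.70 for all bodies. With the minimum of 5 points, 10 of the 23 wider epithelial bodies were lower and 5 higher, where 32.8% of all bodies were lower and 10.6% higher. Lower and higher were 4 and 1 of 6 luminal, 4 and 0 of 6 basal and myoepithelial and 5 and 0 of 8 leukocyte bodies. They were 3 and 1 of 6 adipocyte, 2 and 1 of 9 endothelial and 2 and 2 of 7 fibroblast bodies. The part of cell composition in the results for the 10 genes was not tested.

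**Figure D5:**
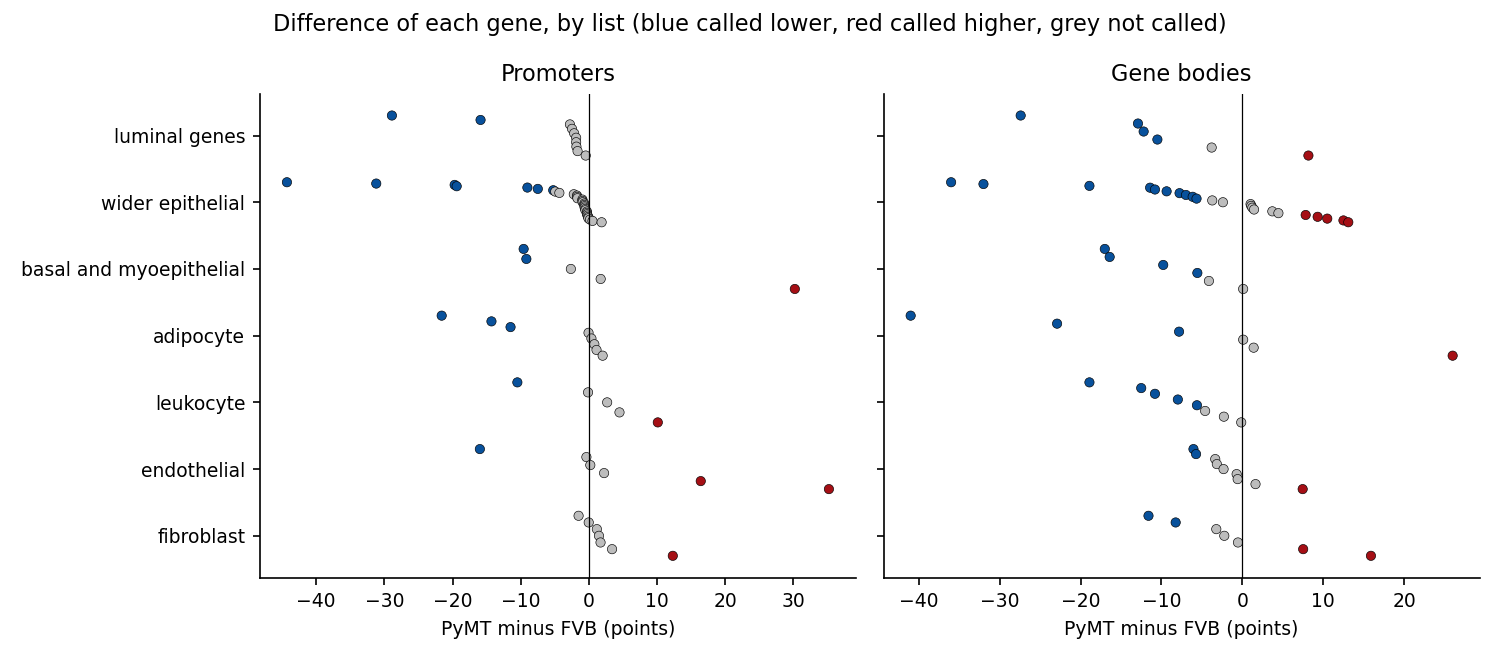
Difference in methylation (PyMT minus FVB, points) of each measured gene, by list, for promoters on the left and gene bodies on the right, blue where called lower, red where called higher and grey where not called. In the promoter panel the 10 luminal genes all lie at or below -0.476 points, and the fibroblast and endothelial lists lie on both sides of 0.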

How the data were processed

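ERRBS values of 22 samples were used. The authors took 3 PyMT and 3 control mice at each time point and removed 2 outlier samples, which they do not name. PyMT weeks 6 and 12 hold 2 samples each here. Alignment was done by the authors in Bismark (mm10). The deposited values are, for every CpG position covered by 10 reads or more, a read count (coverage) and the percent of reads that were methylated or unmethylated. Versions are not given in the sources used here. Samples were grouped by strain and week from the labels. Methylated counts were taken as percent times coverage. Positions covered in all samples were tested per week by a logistic likelihood-ratio test with Benjamini-Hochberg adjustment. Clusters, promoters and gene bodies (at least 3 positions, unweighted mean percent) were tested with limma 3.58.1 in R 4.3.3, with trend, on all samples, and single values by exact permutation within week. Genes came from 45756 curated RefSeq transcripts. Scripts used Python 3.11.15, pandas 2.3.3, SciPy 1.17.1 and pysam 0.24.0, and the tests were tested on simulated data.

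The 10 genes and all gene lists were chosen with earlier results of these data known. For each gene the promoter, the body and the called cluster with the largest difference were named (the largest of all where none was called). The alternatives were coverage of at least 20 reads, other difference minimums, a quasi-binomial or limma test of positions, summed strands or reads, log2 ratio of reads (pseudocount 1), gaps of 50 or 200 bp, promoters of 500 bp, a level filter, a replicate block and leaving out each sample. The minimum of 25 points for clusters, promoters and bodies was chosen after seeing the data.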

Additional observations from a re-analysis of the deposited data

How the results depend on the processing

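Of the named clusters, promoters and gene bodies, 1 changed sign under an alternative: the Krt8 body was -0.242 points with promoters of 500 bp, where it holds 19 positions in place of 4. With a replicate block the Krt19 cluster and body were -10.4 points (limma adjusted p = 0.0945 and 0.0602), and 2 further calls were lost as given in the report (Krt19 promoter on the log2 ratio, Grhl2 promoter within 500 bp). Hypo-DMCs at weeks 6, 8, 10 and 12 numbered 24, 40, 56 and 45 by limma with samples as units, 62 and 68 at weeks 8 and 10 with 25 points, and 54 at week 8 with the quasi-binomial test. Hyper-DMCs at the 4 weeks numbered 2, 1, 0 and 1 with 25 points, 2, 0, 4 and 5 with the quasi-binomial test, and 1, 0, 1 and 0 by limma. Lower clusters over the weeks numbered 31 without a minimum and 8 with 25 points. With 25 points they were 8, 9 and 8 at weeks 8, 10 and 12, without a minimum 16 and 24 at weeks 6 and 10, and with gaps of 50 bp 6 and 7 at weeks 6 and 8. Higher clusters over the weeks were 0 with 10 or 25 points. At weeks 6, 8 and 12 they were 0 with 25 points, and 0 at week 8 with 10 points, on the log2 ratio or with gaps of 50 bp, and 0 at week 12 with gaps of 50 bp. Lower promoters were 1 within 500 bp, where Epcam, Krt8 and Cldn4 had too few positions to be measured. They were 10 without a minimum and 1 with 25 points, and lower bodies 1 with 25 points. Higher bodies were 0 with promoters of 500 bp and with 10 or 25 points. Fewer features reach a higher minimum by construction, and the cause of the other changes was not tested.

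Leaving out 1 sample gave 5 to 12 hyper-DMCs at week 6 (5 without PyMT week 6 replicate 1), 4 to 10 at week 10 (4 without FVB week 10 replicate 2) and 6 to 10 at week 12 (6 without PyMT week 12 replicate 3). Higher clusters ranged from 0 to 2 at week 6, 0 to 1 at week 8 and 0 to 2 at week 12, so these counts rest on single samples, and the change from early to late weeks gave 0 to 1 lower cluster (1 without PyMT week 8 replicate 3). The replicate numbers did not pair the samples: the 10 same-number pairs had correlations of -0.0757 to 0.0602. With the replicate block there were 13 lower and 2 higher clusters, 68, 92, 103 and 86 hypo-DMCs and 6, 7, 5 and 8 hyper-DMCs, and higher clusters were 0, 0 and 1 at weeks 6, 8 and 12. Depth limits Krt19 most, with 16 positions at a mean coverage of 38.1 reads.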
